A study of Mus musculus with 11 samples.

Results

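The Notch receptors (Notch1, Notch2, Notch3 and Notch4) and their ligands (Jag1, Jag2, Dll1, Dll3 and Dll4) were followed in the livers of newborn mice that carried a conditional Notch intracellular domain. The members were chosen by name: every array probe whose gene symbol, as printed in the files or as updated through its accession in RefSeq, was 1 of these 9 genes. This gave 9 of 19694 genes with a symbol on the array, read by 11 of 41174 probes. Notch1 and Jag1 had 2 probes each and the other genes 1.

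The mutant pups were double transgenic, with AFP-Cre and Rosa26-lsl-NICD, and the control pups carried Rosa26-lsl-NICD alone. Both were on a hybrid 129 x C57BL/6 background, and livers were taken on the day of birth (day 0) and on day 2. There were 3 mutant and 2 control livers on day 0, and 3 mutant and 3 control livers on day 2, each on 1 Agilent one-colour array. All groups therefore shared the Rosa26 allele, and no group carried Cre without it, so an effect of Cre and an effect of NICD cannot be told apart. Cre was driven by the promoter of the alpha-fetoprotein gene, which is active in fetal hepatoblasts and hepatocytes. In which cells of these livers Cre had acted was not measured. Nothing in the labels says whether the livers of a group came from separate litters, so p-values measure the spread between these livers.

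Notch signalling works between touching cells. A ligand of the Jagged or Delta-like family on one cell binds a Notch receptor on the next, the receptor is cut within the membrane, and its intracellular domain (NICD) enters the nucleus, binds RBPJ and Mastermind proteins and switches on genes of the Hes and Hey families. In the newborn liver the pathway is known for the formation of bile ducts, where Jag1 in the portal mesenchyme acts on Notch2 in neighbouring hepatoblasts. Notch4 and Dll4 are known chiefly from endothelium. The lsl cassette is a stop signal between lox sites that Cre removes.

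Levels are log2 of the processed signal relative to the 75th percentile of the same array, so 0 is a probe as bright as that percentile. A difference of 1 is a factor of 2. A probe was tested if in 1 group or more all arrays read it well above background. Of the 11 probes 9 were tested, covering 8 of the 9 genes. The exceptions were the Dll3 probe and 1 of the Jag1 probes. Levels of different probes are not set against each other. In whole liver, fewer cells of a type and less RNA per cell cannot be told apart.

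Where each probe reads its gene bears on the values of Notch1 and Jag1. Positions are those in the array files, on mouse build mm8, and all lie on the minus strand except those of Notch2, Notch4 and Dll4. The Notch1 probes were neighbours, A_52_P183088 at chr2:26281319-26281378 and A_51_P508510 at chr2:26281261-26281319. The Jag1 probes lay farther apart, A_51_P280906 at chr2:136774647-136774706 and A_52_P634090 at chr2:136773138-136773197, with 1509 bases between their starts. For the genes that the results turn on, 30 bases of each 60-base probe are given here, 5′ to 3′ in the sense of the mRNA. Capitals mark AATAAA, the polyadenylation hexamer. Among these 11 probes only A_51_P508510 held it, against 4.78% of the 41174 probes of the array.
Notch1 A_51_P508510: ctgttccaagaaAATAAActagttctcaga
Notch1 A_52_P183088: cctttttatttatatgtattgttttctatg
Jag1 A_51_P280906: tcaggacacacaactcggaagtggaggagg
Jag1 A_52_P634090: gaaccgtaaaatgtccagttagatcactgt
Notch4 A_51_P195875: ccaagaactgtgggcgaattgggtgtaaaa
Dll1 A_51_P306017: agaaacacaactgcctttattgtccttttt

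The labels do not say which bases of a Notch gene the Rosa26 allele holds. Whether the Notch1 probes can read its transcript is therefore not known here, and their values do not check the genotype labels.

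The 75th percentile of the signal, by which each array was scaled, was 608 to 959 in mutant and 755 to 860 in control livers on day 0. On day 2 it was 1050 to 1300 in mutant livers, against 794 to 975 in control livers, higher in every mutant than in any control; its part in the results was not tested. On each array 63.1% to 68.5% of spots were well above background. The number of arrays limits the precision of what follows. One array, replicate 3 of the day 0 mutants, stood apart. Its correlation with the other arrays of its group was 0.952 to 0.953, against at least 0.983 within the other groups. Pup sex, read from Xist and Y-linked genes, coincided with genotype on day 0 (3 females among the mutants, 2 males among the controls) and was balanced on day 2 (1 male and 2 females in each group). Genotype and array position on the slide also coincided throughout and cannot be told apart.

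The comparison of mutant with control livers asks which of these genes were higher or lower where NICD was switched on. Over both days Notch4, Dll1 and Jag1 (A_52_P634090) were higher in mutant livers, and no member was lower. These 3 were called among 9 tested probes, beside 7.3% of all 27072 tested probes called higher (limma, Benjamini-Hochberg adjusted p under 0.05). The fitted difference was above 0 for all 9 tested member probes. At Notch2 and at both Notch1 probes its sign turned under 1 alternative setting each. How many of all tested probes lay above 0 was not counted. The median difference of the 9 probes was 0.36 on the log2 scale, against -0.06 over all tested probes. With pup sex as a covariate none of the 3 passed, at 0.59 for Notch4, 1.08 for Dll1 and 0.89 for Jag1 (limma adjusted p = 0.0757, 0.0664 and 0.115).

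Dll1, a Delta-like ligand that activates receptors on neighbouring cells, was read by a probe with 10 spots on each array. In mutant livers its level was -0.06, -1.39 and -0.73 on day 0, against -1.58 and -1.72 in control livers. The levels on day 2 were 0.14, 0.08 and 0.00 in mutant livers, against -1.31, -0.83 and -0.71 in control livers. Every mutant liver lay above every control liver of its day, and the day 2 mutants were far tighter than the day 0 mutants. The SD between spots of the same array was 0.03 to 0.12. The difference over both days was 0.97 ± 0.22 (SE, limma adjusted p = 0.0211), a 1.96-fold higher signal. It was 0.92 on day 0 (limma adjusted p = 0.256) and 1.02 on day 2 (limma adjusted p = 0.0523), which did not pass on either day alone. The day 2 value passed under 8 of 21 alternative settings, at adjusted p values of 0.0138 to 0.174 over them. Within slides the mutant was above the control in each of the 5 pairs, by 0.33 to 1.51. The call over both days was lost without either control of day 0, without mutant replicate 1 or 2 of day 2 or without control replicate 1 of day 2, where the adjusted p was at most 0.0868.

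Jag1 is the Jagged ligand whose loss of a gene copy causes bile duct paucity in people. At A_52_P634090 its level was -0.26, -1.50 and -0.42 in mutant livers on day 0, against -1.22 and -0.92 in control livers. Its levels on day 2 were -0.02, -0.14 and 0.01 in mutant livers, against -1.50, -1.35 and -1.20 in control livers. The groups overlapped on day 0, where replicate 2 of the mutants was the lowest liver, and stood well apart on day 2. The difference was 1.30 ± 0.29 on day 2 (SE, limma adjusted p = 0.0172), a 2.46-fold higher signal, and 0.34 ± 0.32 on day 0 (SE, limma adjusted p = 0.677). Over both days it was 0.82 ± 0.22 (SE, limma adjusted p = 0.0359). With the replicate number as a block that value was 0.78 (limma adjusted p = 0.0643), so the call over both days was lost. It was also lost without mutant replicate 1 of day 0 or without any 1 of the 8 livers outside the day 0 mutants, at adjusted p values of up to 0.142. With the block the day 2 value was 1.30 (limma adjusted p = 0.0273). The day 2 call was lost without any 1 mutant liver of day 2, or without control replicate 1 or 2 of day 2, at adjusted p values of 0.0531 to 0.0674.

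The other Jag1 probe, A_51_P280906, was not well above background on any of the 11 arrays. Its level was -8.51 to -7.52 in mutant and -8.16 to -7.98 in control livers on day 0, and -8.59 to -7.00 in mutant and -8.07 to -6.58 in control livers on day 2. It gives no fold and no direction for Jag1, and the Jag1 result rests on a single probe.

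Jag2, the second Jagged ligand, was dim but above background on 10 of 11 arrays. On day 0 its level was -5.16, -4.65 and -3.0 in mutant livers, against -5.63 and -5.61 in control livers. On day 2 its levels were -4.66, -5.22 and -4.78 in mutant livers, against -5.90, -5.42 and -6.11 in control livers. The mutant livers lay above the controls on both days, with replicate 3 of the day 0 mutants far above the rest. The difference over both days was 1.14 ± 0.35 (SE, limma adjusted p = 0.0655) and did not pass the test. Without that liver it was 0.82 (limma adjusted p = 0.0144), and without replicate 1 of the day 0 mutants 1.36 (limma adjusted p = 0.0275). These were the 2 of 19 alternative settings under which it passed. With normexp background correction it was 0.26 (limma adjusted p = 0.452), and in the authors' deposited table it was 0.65 (limma adjusted p = 0.0941). The day 2 difference was 0.93 (limma adjusted p = 0.237), and 0.05 with normexp (limma adjusted p = 0.921), so the size of the Jag2 difference depended on the background correction.

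Dll4, the endothelial Delta-like ligand, overlapped between genotypes on both days. Its level was -3.15, -2.62 and -1.89 in mutant livers on day 0, against -3.33 and -2.76 in control livers. The day 2 levels were -3.55, -4.02 and -3.45 in mutant livers, against -3.84 and -3.95 in control livers; the spot of the other day 2 control was marked as an outlier and left out, so 10 arrays entered its fit. The genotype difference over both days was 0.36 (limma adjusted p = 0.425, 95% interval -0.22 to 0.94).

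Dll3, a ligand that is retained inside the cell and is not known to activate receptors in neighbours, was well above background on 1 of 11 arrays, that of control replicate 2 on day 0, and was not tested. Its level was -6.30 to -5.39 in mutant livers and -6.18 to -5.25 in control livers on day 0. The levels on day 2 were -7.50 to -6.19 in mutant livers and -6.21 to -5.97 in control livers. These values set no order between the groups.

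**Figure D1:**
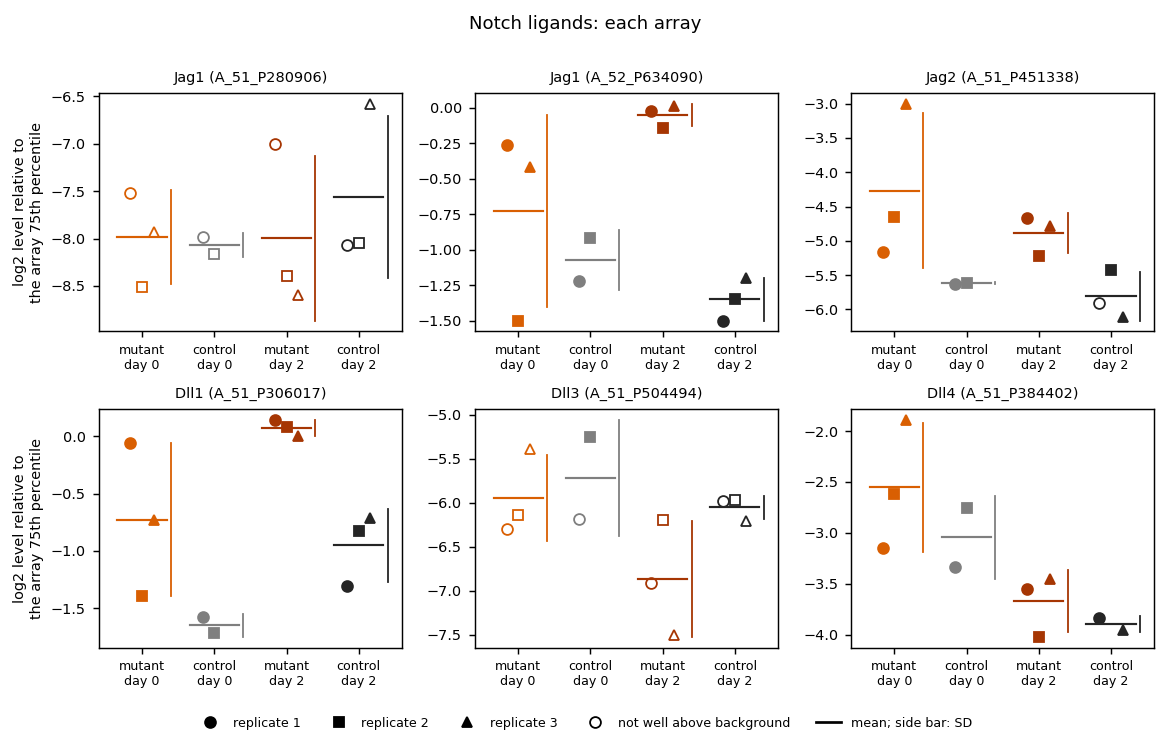
Log2 level relative to the array's 75th percentile (vertical axis) of each ligand probe in each liver, by genotype and day; marker shape gives the replicate, open markers are arrays not well above background, horizontal bars are means and the bar at the side is 1 SD. The day 2 mutants of Jag1 (A_52_P634090) at -0.14 to 0.01 and of Dll1 at 0.00 to 0.14 lie above all controls, while the other Jag1 probe has open markers throughout.

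Among the receptors Notch4 alone passed the test. In mutant livers its level was -0.73, -0.61 and -0.29 on day 0, against -0.74 and -0.50 in control livers. Its levels on day 2 were -0.05, -0.18 and -0.04 in mutant livers, against -1.34, -1.03 and -1.30 in control livers. The groups overlapped on day 0 and were separated on day 2 by more than their whole spread. The difference on day 2 was 1.14 ± 0.16 (SE, limma adjusted p = 0.00195), a 2.20-fold higher signal, and on day 0 it was 0.08 ± 0.18 (SE, limma adjusted p = 0.884). Over both days it was 0.61 ± 0.12 (SE, limma adjusted p = 0.0109). The call over both days was lost without control replicate 1 of day 0 (limma adjusted p = 0.0624). The day 2 call held under all 21 alternative settings, at adjusted p values of 0.000578 to 0.0116.

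Notch1 was read by neighbouring probes that gave the same picture. At A_51_P508510, which had 10 spots an array, its level was -2.43, -2.90 and -0.75 in mutant livers on day 0, against -2.17 and -1.85 in control livers. On day 2 its levels were -1.95, -1.80 and -1.88 in mutant livers, against -2.31, -2.18 and -2.35 in control livers. Replicate 3 of the day 0 mutants was the highest liver of all and the other day 0 mutants were the lowest. At A_52_P183088 the level was -2.82, -3.46 and -1.34 in mutant livers on day 0, against -2.59 and -2.65 in control livers. The day 2 levels were -2.49, -2.40 and -2.42 in mutant livers, against -2.75, -2.86 and -2.75 in control livers. At either probe the day 2 groups did not overlap, and the day 0 mutants lay on both sides of their controls.

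The day 2 difference of Notch1 was 0.41 (95% interval -0.59 to 1.40, limma adjusted p = 0.597) at A_51_P508510. At A_52_P183088 it was 0.35 (95% interval -0.60 to 1.30, limma adjusted p = 0.643). These intervals use 1 spread for all 4 groups, in which the day 0 mutants had an SD of 1.13 and 1.09 at these probes, against 0.08 and 0.05 in the day 2 mutants and 0.09 and 0.06 in the day 2 controls. When the 2 groups of day 2 were fitted alone the same differences had adjusted p values of 0.0486 and 0.0617 (limma). Over both days the difference was 0.20 and 0.22 (limma adjusted p = 0.764 and 0.725). It turned to -0.12 and -0.08 without replicate 3 of the day 0 mutants. That liver's 10 spots of A_51_P508510 lay between -0.81 and -0.67, and all 10 were above every spot of that probe on the other arrays.

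**Figure D2:**
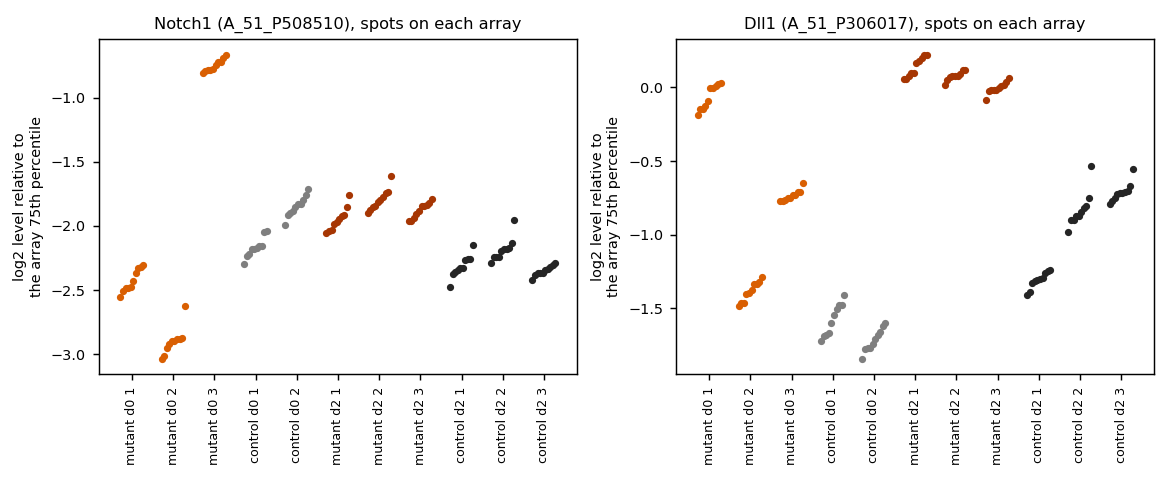
Log2 level relative to the array's 75th percentile (vertical axis) of each kept spot of Notch1 probe A_51_P508510 (left) and Dll1 probe A_51_P306017 (right) on each array, sorted by value within an array. Spots of an array stay together, with an SD of 0.04 to 0.11 for Notch1 and 0.03 to 0.12 for Dll1, while the 3 day 0 mutants differ widely from each other for both genes.

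Notch2, the receptor that bile duct formation depends on, and Notch3, known from vascular smooth muscle, did not pass the test. Notch2 was at -4.46, -4.42 and -4.14 in mutant livers on day 0, against -4.79 and -3.92 in control livers. On day 2 Notch2 was at -4.51, -4.30 and -4.93 in mutant livers, against -5.19, -5.42 and -4.83 in control livers. The groups overlapped on both days, and the day 2 difference was 0.57 (95% interval -0.03 to 1.16, limma adjusted p = 0.201). With normexp background correction that difference was -0.07, so no direction is given for Notch2.

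Notch3 was at -1.66, -2.20 and -1.67 in mutant livers on day 0, against -2.0 and -1.54 in control livers. On day 2 Notch3 was at -1.37, -1.91 and -1.50 in mutant livers, against -1.98, -1.74 and -2.45 in control livers. The groups overlapped on both days, and the day 2 difference was 0.46 (95% interval -0.10 to 1.02, limma adjusted p = 0.265).

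**Figure D3:**
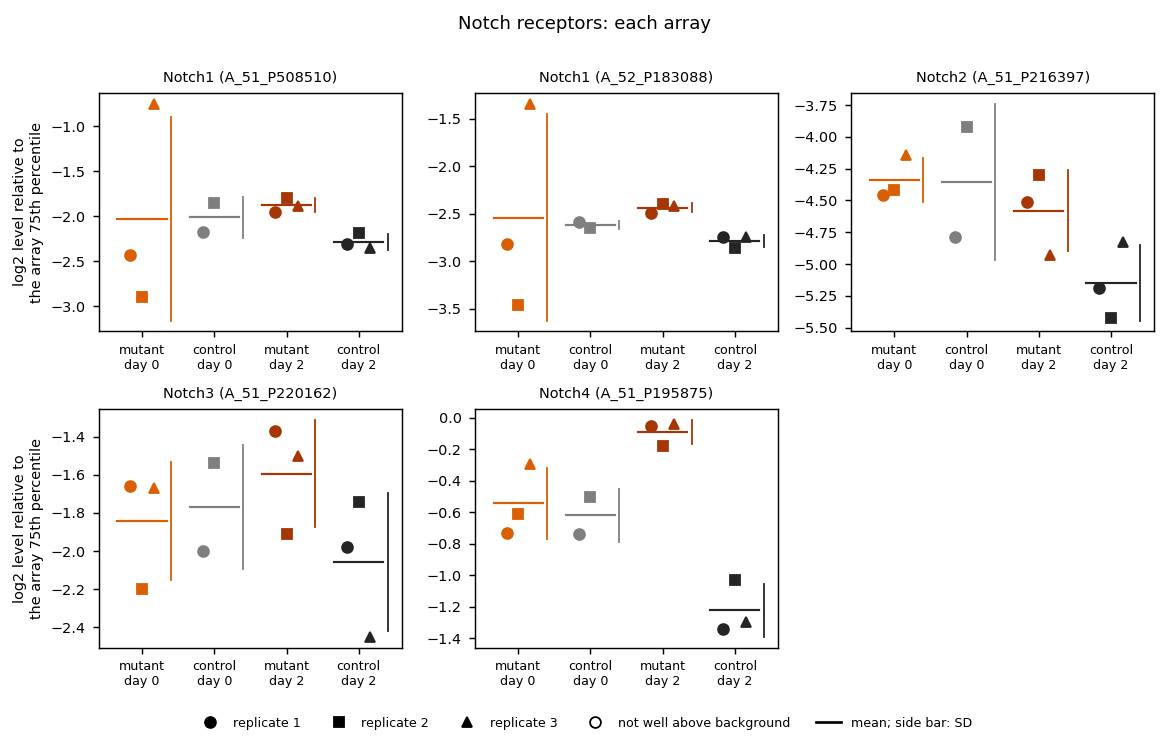
Log2 level relative to the array's 75th percentile (vertical axis) of each receptor probe in each liver, by genotype and day; marker shape gives the replicate, horizontal bars are means and the bar at the side is 1 SD. The day 2 mutants of Notch4 sit at -0.18 to -0.04 and the day 2 controls at -1.34 to -1.03, and 1 day 0 mutant is far above the others at both Notch1 probes.

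By day, the calls fell on day 2. On day 2 Notch4 and Jag1 (A_52_P634090) were called among the 9 tested probes, beside 8.09% of all tested probes called higher. Every mutant liver lay above every control liver at 6 of the 9 probes (both Notch1 probes, Notch4, Jag1, Jag2 and Dll1), beside 19.5% of all tested probes. The probes of 1 gene share their target, so these are 5 genes. On day 0 no member was called, beside 1.7% of all tested probes called in either direction, and 2 member probes (Jag2 and Dll1) had an unadjusted p under 0.05. These 2 were also the probes at which the day 0 mutants lay wholly above the controls, beside 14.9% of all tested probes.

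The difference between the days was tested in its own right. No member passed, beside 0.196% of all tested probes (limma, 1 member probe with an unadjusted p under 0.05). That probe was Notch4, whose genotype difference was larger on day 2 than on day 0 by 1.06 ± 0.24 (SE, limma adjusted p = 0.134). Without replicate 3 of the day 0 mutants the Notch4 value was 1.19 (limma adjusted p = 0.043). For Jag1 the difference between days was 0.96 ± 0.43 (SE, limma adjusted p = 0.389) and for Dll1 it was 0.10 ± 0.45 (SE, limma adjusted p = 0.948).

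**Figure D4:**
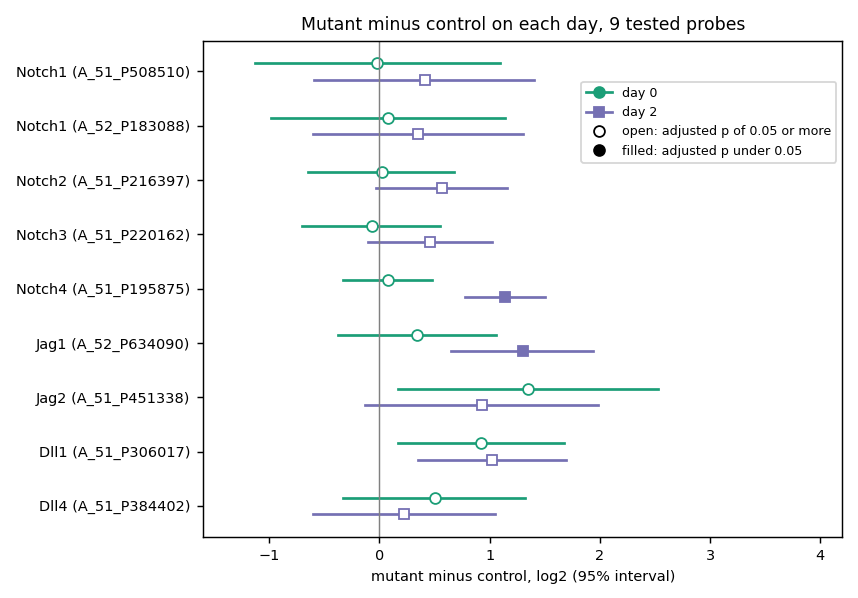
Mutant minus control difference on the log2 scale (horizontal axis) with its 95% interval, for the 9 tested probes on day 0 (circles) and day 2 (squares); filled markers passed the test over all tested probes. Notch4 at 1.14 and Jag1 at 1.30 on day 2 are filled, and no day 0 marker is.

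Change with age was compared within each genotype. In mutant livers Dll4 was lower on day 2 than on day 0, by -1.12 ± 0.32 (SE, limma adjusted p = 0.045), a level 0.461 times as high. It was the one member called lower, beside 10.8% of all tested probes called lower. The call was lost when any 1 liver other than replicate 1 of the day 0 mutants was left out, at adjusted p values of 0.0505 to 0.134. Without replicate 3 of the day 0 mutants the value was -0.78 (limma adjusted p = 0.0718), and with the replicate block it was -1.12 (limma adjusted p = 0.0514). In control livers the Dll4 difference was -0.84 ± 0.40 (SE, limma adjusted p = 0.209).

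No member passed between the days in control livers, beside 9.51% of all tested probes called in either direction (limma, 2 member probes with an unadjusted p under 0.05). Those 2 were Notch2, with a difference of -0.79 (limma adjusted p = 0.12), and Notch4, with -0.61 (limma adjusted p = 0.0644). In mutant livers Notch4 differed between days by 0.45 (limma adjusted p = 0.0772), Jag1 by 0.68 (limma adjusted p = 0.122) and Dll1 by 0.80 (limma adjusted p = 0.0876). Without replicate 3 of the day 0 mutants both Notch1 probes were called higher on day 2 in mutant livers, by 0.79 and 0.70 (limma adjusted p = 0.0156 and 0.0281). Comparisons within a day and between days share livers, so they are not independent of each other.

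The order of the group means differed among the genes. For Notch4 and Jag1 it was day 2 mutants, day 0 mutants, day 0 controls and day 2 controls, with the day 0 groups of either genotype within 1 SD of each other. For Dll1 the day 2 mutants were highest and the day 0 controls lowest, and the day 0 mutants and day 2 controls did not differ beyond their spread. For Dll4 and Notch2 the day 0 groups were highest and differed from each other by less than 1 SD. For Notch3 no neighbours in the order differed by more than the larger of their SDs.

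The rest of the pathway was described from lists of genes by role, 62 genes of which 55 had a tested probe. Over both days 12 of these 55 were higher in mutant livers and none was lower, beside 7.3% of all tested probes called higher (limma, adjusted over all tested probes). On day 0 it was 6 higher, beside 1.23% of all tested probes, and on day 2 it was 14 higher, beside 8.09%, again with none lower. The median difference over the 55 genes was 0.16 over both days, against -0.06 over all tested probes.

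The target genes carried most of these calls, with 7 of 10 higher over both days and a median difference of 2.58. Hes1, the classical target and a transcriptional repressor, was higher by 1.78 (limma adjusted p = 0.0027). Hey1, a related repressor, was higher by 3.1 (limma adjusted p = 9.05e-05). Heyl was higher by 2.35 (limma adjusted p = 0.00464). Nrarp, a target that dampens the NICD complex, was higher by 3.79 (limma adjusted p = 1.09e-05), and Sox9, a bile duct transcription factor, by 4.30 (limma adjusted p = 5.62e-06). The largest day 2 difference among the receptors and ligands, 1.30 for Jag1, was below the day 2 difference of each of the 7 targets called that day.

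In each list of genes that handle the ligands and receptors 1 gene was called, beside 7.3% of all tested probes called higher over both days. A single call in a list this short says little about the list. Of 6 tested genes for ligand endocytosis 1 was higher over both days, Neurl1b by 0.85 (limma adjusted p = 0.00955), which encodes a ubiquitin ligase of the Neuralized family. Of 9 tested genes for receptor cleavage 1 was higher, Aph1b, a gamma-secretase subunit, by 0.58 (limma adjusted p = 0.00679). On day 2 the Aph1b difference was 1.08 and on day 0 it was 0.07, but the difference between the days did not pass (limma adjusted p = 0.1). Of 5 glycosylation genes 1 was higher, Poglut1, which adds glucose to Notch repeats, by 0.53 (limma adjusted p = 0.0162). The other members of these lists did not pass over both days.

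Of 9 tested modulators 1 was higher over both days, again beside 7.3% of all tested probes. It was Dtx1, a Deltex ubiquitin ligase that binds Notch, by 2.24 (limma adjusted p = 0.0049). Of 5 tested non-canonical ligands 1 was higher, Dlk1, a Delta-like protein of fetal hepatoblasts, by 0.84 (limma adjusted p = 0.0121). None of 11 nuclear complex genes passed over both days. Rbpj, the DNA-binding partner of NICD, differed by 0.22 (limma adjusted p = 0.722).

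**Figure D5:**
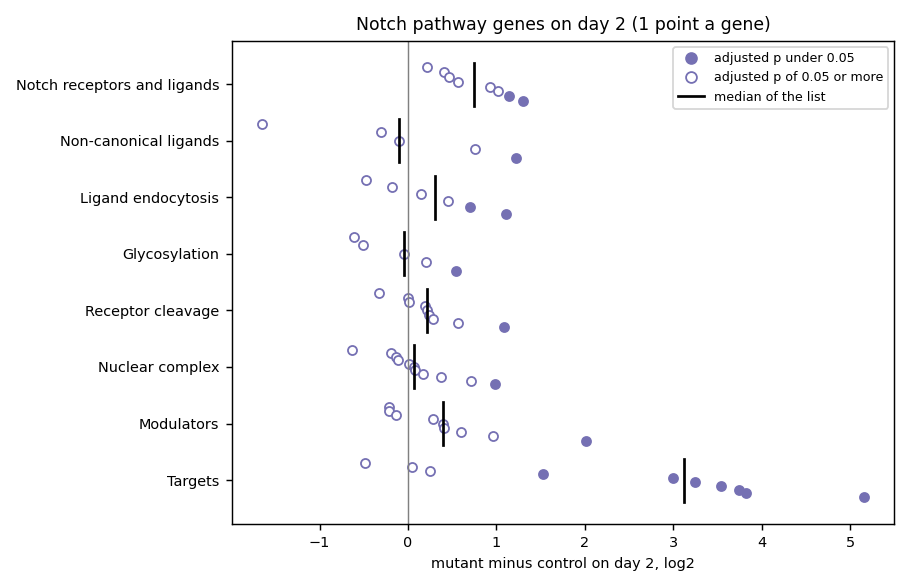
Mutant minus control difference on day 2 on the log2 scale (horizontal axis), 1 point a gene, for the receptors and ligands and for 7 lists of other Notch pathway genes; filled points passed the test and black bars are list medians. The target list has a median of 3.12, the receptors and ligands 0.75, and no pathway gene was called lower.

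The receptors and ligands are expressed by several liver cell types, so marker levels were set beside them. The counts of called markers on day 2 stand beside 2190 (8.09%) called higher and 1352 called lower of all 27072 tested probes. Of 18 tested endothelial markers on day 2, 1 was higher (Emcn) and 1 was lower (Stab2), and the median difference was 0.00. Their summed level was 31.2 to 38.4 in mutant livers, against 32.7 to 36.8 in control livers on day 2. Summed levels here add the markers of a list on the linear scale, so the brightest markers weigh most. Pecam1, Cdh5 and Kdr, defining endothelial genes, differed by 0.22, 0.11 and -0.36 on day 2 (limma adjusted p = 0.699, 0.841 and 0.343). The summed level of arterial endothelial markers did not overlap on day 2, at 5.58 to 5.76 in mutant livers, against 3.39 to 4.7 in control livers. Of single probes, 19.5% had every day 2 mutant above every control. Unc5b, the brightest of these markers in day 2 mutants, had a mean of 0.93 there, against -1.26 in day 2 controls. None of the 8 tested arterial markers was called on day 2, where their median difference was 0.28. The differences ran from -0.56 for Gja5 to 2.18 for Unc5b (limma adjusted p = 0.0798 and 0.186). Over both days 2 of the 8 were higher, beside 7.3% of all tested probes. They were Gkn3 by 0.96 and Nrp1, a semaphorin and VEGF co-receptor, by 0.89 (limma adjusted p = 0.0271 and 0.0351). The part of arterial and other endothelial cells in the Notch4 value was not tested.

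On day 2 bile duct markers were higher in the livers in which Jag1 and Notch4 were higher. Of 12 tested, 9 were higher and 1 was lower on day 2, with a median difference of 1.86. The lower one was Cd24a, by -0.96 (limma adjusted p = 0.0155). Sox9 is on this list and on the target list. Epcam was higher by 4.52 (limma adjusted p = 6.06e-05) and Krt19, a keratin of bile duct cells, by 2.68 (limma adjusted p = 0.00985). The summed level of the 12 bile duct markers was 277 to 336 in mutant livers, against 95.9 to 136 in control livers on day 2. Spp1 was the brightest of them in day 2 mutants, with a mean of 7.71 there, against 3.45 in day 2 controls. In day 2 controls Cd24a was the brightest, with a mean of 6.42, against 5.47 in day 2 mutants. The mean of the markers' log2 levels was 1.93 to 1.96 in mutant livers, against -0.19 to 0.15 in control livers on day 2. On day 0 Notch4 differed by 0.08, Jag1 by 0.34 and Dll1 by 0.92, and none of these was called. That day 5 of the 12 bile duct markers were higher, beside 1.23% of all tested probes. None was lower, and the median difference was 0.71. Their day 0 sum was 171 to 443 in mutant livers, against 140 to 148 in control livers. Their part in the Jag1, Dll1 and Notch4 values was not tested.

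Of 14 stellate cell and portal mesenchyme markers, 3 were higher on day 2 and none was lower, with Des higher by 0.69 (limma adjusted p = 0.0486). Their summed level was 55.5 to 96.9 in mutant livers, against 49.9 to 56.4 in control livers on day 2, and its part in these results was not tested. Newborn liver still makes blood cells, and 6 of 9 erythroid markers were lower in mutant livers on day 2. Their summed level was 426 to 614 in mutant livers, against 914 to 1160 in control livers. Hba-a1 was the brightest of them, with a day 2 mean of 8.84 in mutant and 9.68 in control livers. Of 11 hepatocyte markers 5 were lower on day 2, and of 8 macrophage markers 2, beside 1352 of all 27072 tested probes called lower. Adgre1, a macrophage marker, differed by -0.82 (limma adjusted p = 0.0231). The hepatocyte sum on day 2 was 1940 to 2080 in mutant livers, against 2700 to 3460 in control livers, and the macrophage sum 78.9 to 132 in mutant livers, against 94.5 to 105 in control livers. None of 6 megakaryocyte markers was called on day 2, with a sum of 44.9 to 50.1 in mutant livers, against 84.7 to 93.4 in control livers. Of 5 smooth muscle markers 1 was higher on day 2 (Mylk) and 1 was lower (Tagln), with a median difference of 0.64. Their sum, in which Tagln was the brightest marker, was 58.8 to 69.7 in mutant livers, against 92.4 to 184 in control livers. The mean of their log2 levels went the other way, at 0.95 to 1.37 in mutant livers, against 0.56 to 0.89 in control livers. Of 3 tested pancreas and gut markers 1 was higher on day 2 (Vil1), with a sum of 1.52 to 1.95 in mutant livers, against 1.16 to 1.46 in control livers. The part of these cells in the values of the receptors and ligands was not tested. On all 11 arrays the defining markers named here were well above background.

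Genes with a profile over the 11 arrays close to that of a member were found among 15110 genes, by the root mean square difference between standardised profiles in SD units. For Notch4 they were Kirrel at 0.21 and Cers4 at 0.25, against a median of 1.41 over all genes. For Jag1 they were Igf1r at 0.29 and Slc35f1 at 0.31, and for Dll1 Kazn at 0.33. For Jag2 they were Kcne3 at 0.26 and F3 at 0.28. For Notch1 Phf21a was at 0.28. For Notch2 they were Tbc1d20 at 0.39 and Ttc9 at 0.44, and for Notch3 Cul9 at 0.37 and Efnb2 at 0.41. Dll4 lacked a value on 1 array and was not compared. The livers share slide and group, and likeness here says nothing of function.

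The promoters of the 3 members called over both days are shown because Hes1, Hey1 and Heyl were also higher over both days. Hes5 and Hes6 differed by 0.03 and 0.01 and did not pass. On day 0 Hes1 and Hey1 were higher by 2.04 and 2.46 (limma adjusted p = 0.0411 and 0.0148), while none of the 3 members was called. Whether Hes or Hey proteins act on these promoters was not tested. The sequences are the 250 bases before the annotated start, from RefSeq on GRCm38.p6, at chr17:34564045-34564294 on the plus strand for Notch4, chr2:137116521-137116770 on the minus strand for Jag1 and chr17:15376933-15377182 on the minus strand for the upstream start of Dll1. Capitals mark CACGNG, a site that Hes and Hey proteins are known to bind, on either strand.
Notch4: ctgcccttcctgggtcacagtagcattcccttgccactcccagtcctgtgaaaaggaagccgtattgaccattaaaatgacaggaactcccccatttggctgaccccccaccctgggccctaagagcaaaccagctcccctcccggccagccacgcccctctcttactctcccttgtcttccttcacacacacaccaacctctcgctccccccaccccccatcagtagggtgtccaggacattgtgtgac
Jag1: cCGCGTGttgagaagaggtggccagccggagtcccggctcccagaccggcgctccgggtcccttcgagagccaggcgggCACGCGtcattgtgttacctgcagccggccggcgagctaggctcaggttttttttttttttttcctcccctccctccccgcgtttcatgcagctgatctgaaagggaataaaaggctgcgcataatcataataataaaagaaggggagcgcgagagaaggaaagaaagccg
Dll1: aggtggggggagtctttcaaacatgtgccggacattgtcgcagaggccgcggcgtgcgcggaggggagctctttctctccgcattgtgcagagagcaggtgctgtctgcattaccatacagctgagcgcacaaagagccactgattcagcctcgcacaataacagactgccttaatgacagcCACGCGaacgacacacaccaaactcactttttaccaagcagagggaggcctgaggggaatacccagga

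Jag1 held 2 such sites, which began 249 and 171 bases before the start, Dll1 held 1 at 68 bases, and Notch4 held none. Of the 9 genes 5 held the motif (Notch2, Notch3, Jag1, Dll1 and Dll4), against 23.5% of all 32851 promoter windows of this length. TGGGAA, the core recognised by RBPJ, was found on neither strand in any of the 9 genes, against 21.6% of the windows. No match says only that these letters are not in these 250 bases, and a match is not a measured binding site. G and C made up 52.0% to 87.2% of the members' windows, against a median of 52.4% over all windows.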

How the data were processed

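Total RNA of each liver was amplified and labelled with Cy3 alone, per the labels' protocols. The authors deposited 1 scanner file an array with spot intensity, which Agilent Feature Extraction 9.5.3.1 had background-subtracted and detrended, per the file headers. They also deposited a table of log2 values made with RMA, per the submitters' processing notes; its settings are not given in the sources used here, and it served as an alternative. Its 11 columns had medians of 7.61 to 7.64.

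Here log2 of the processed signal was taken relative to each array's 75th percentile over non-control spots. Spots flagged as outliers were left out and repeated spots averaged. Of 41174 probes 27072 were tested, those that all arrays of 1 group or more read well above background. Gene symbols came from RefSeq through an accession for 23374 probes, the printed symbol for 6733 and a synonym for 2919. The fit was made with limma 3.58.1 under R 4.3.3 (data.table, version 1.17.8), with 4 group coefficients, 1 shared spread (7 degrees of freedom from the residuals and 2.54 from the prior) and Benjamini-Hochberg adjustment over all tested probes at 0.05, and was tested on simulated data. For a listed gene with several tested probes, the one with the highest mean was used.

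All member probes are named whatever their values, with up to 4 genes a list by p over both days, a fixed set of markers and targets, and the 2 genes nearest each member's profile; a few of these genes are not reported here. The members, lists and rules were chosen with earlier results of these data known. Alternatives were normexp with an offset of 50, quantile normalization, the deposited values, filters, 1 probe a gene, the replicate block, an intensity trend, sex, single days, and each liver left out. Replicate number is also the slide, as scan times in the file headers show, and each slide held all groups except that slide 3 had no day 0 control. Deviations from the group mean in mutant and control livers of the same number correlated at 0.229 to 0.280 on day 2 (3 pairs). On day 0 such pairs correlated at 0.0605 to 0.0901 (2 pairs). Livers of different numbers on day 2 were at -0.209 to -0.0572. Deviations sum to 0 within a group, so these values mirror those of the same number and add nothing of their own. Across days, livers of the same number were at -0.0387 to 0.122. The pairing by slide therefore rests on the scan times.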

Additional observations from a re-analysis of the deposited data

Results flagged for a closer look

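For Notch4 every day 2 mutant lay above every day 0 mutant, and every day 2 control below every day 0 control. The test of this difference gave 1.06 on the log2 scale and did not pass (limma adjusted p = 0.134). For Notch1 the sign of the mutant minus control value within slides turned between the days. How many of all tested probes show the Notch4 or the Notch1 pattern was not counted. At A_51_P508510 the mutant minus control value was -0.26 and -1.05 on the 2 slides of day 0, and 0.37, 0.39 and 0.47 on the 3 slides of day 2. At A_52_P183088 it was -0.22 and -0.81 on day 0, and 0.26, 0.46 and 0.32 on day 2. The tests of the difference between days, which also used the day 0 mutant without a control on its slide, gave 0.43 and 0.26 (limma adjusted p = 0.83 and 0.894).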

How the results depend on the processing

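Of the alternatives, Notch4 on day 2 kept its call in all 21, at 1.01 to 1.24, Jag1 on day 2 in 16 of 21, Dll1 over both days in 14 of 20, Notch4 over both days in 18 of 20, Jag1 over both days in 8 of 20 and Dll4 between days in mutants in 5 of 19. The number of member probes called over both days (3) was 0 with sex as a covariate, and 0 to 4 with a liver left out. On day 2 (2 called) it was 5 when only the groups of day 2 were fitted, and 1 to 4 with a liver left out. The 5 were both calls, Dll1, Jag2 and Notch1 A_51_P508510. Between days in mutants (1 called) it was 0 with quantile normalization, no filter on dim probes, the replicate block or sex. With the filter on all arrays it was also 0, because the Dll4 probe was then not in the fit. It was 0 to 3 with a liver left out. Leaving out a liver gave 0 to 1 for the difference between days and in controls, and 0 on day 0. The replicate block changed no other member's call than those of Jag1 (0.78) and Dll4 (-1.12). Calls over all tested probes ranged with a liver left out from 1780 to 5823 over both days (3408 with all), 82 to 1114 on day 0 (460), 1812 to 6833 on day 2 (3542), 3 to 289 for the difference (53), 384 to 6625 in controls (2575) and 2141 to 5448 in mutants (5141). With sex as a covariate they were 1460 over both days, 28 on day 0, 7 for the difference, 448 in controls and 3011 in mutants. Fitted alone, day 0 gave 68 and day 2 gave 5617. Without a filter there were 285 on day 0, 11 for the difference and 1585 in controls. The difference had 34 calls with quantile normalization and 16 with the block, and the change in mutants had 3155 with 1 probe a gene. Without replicate 3 of the day 0 mutants, 16, 7 and 19 pathway genes were higher over both days, on day 0 and on day 2, a setting chosen after seeing the data.

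Signs turned only for values that did not pass the test. For Notch1 A_51_P508510 on day 0 they became 0.04 with normexp and 0.02 in the authors' deposited table. For A_52_P183088 they became -0.13 on day 0 with the block, 0.02 between days in controls with quantile normalization and in the authors' deposited table, and -0.08 in mutants with normexp. Notch2 turned with normexp to -0.01 over both days, -0.07 on day 2 and -0.13 for the difference, to -0.02 (quantile), -0.04 (authors' deposited table) and -0.01 (block) on day 0, and to 0.02 (quantile) and 0.00 (authors' deposited table) in mutants. Jag2 turned to 0.14 in controls with quantile normalization, and the Dll1 difference between days to -0.13 with sex. With a liver left out, the values that turned ranged as follows. Notch1 A_51_P508510 went over -0.12 to 0.41 over both days, -0.65 to 0.42 on day 0, -0.01 to 1.06 for the difference and -0.29 to 0.79 in mutants. A_52_P183088 went over -0.08 to 0.45, -0.52 to 0.54, -0.20 to 0.86 and -0.36 to 0.70 for the same comparisons. On day 0 Notch2 ranged over -0.42 to 0.45, Notch3 over -0.30 to 0.16 and Notch4 over -0.05 to 0.19. For the difference, Jag2 ranged over -0.87 to 0.21, Dll1 over -0.23 to 0.43 and Dll4 over -0.57 to 0.06. Jag2 in mutants ranged over -1.06 to 0.02. The cause of these shifts was not tested. Signal limits Jag2, Dll3 and the second Jag1 probe, which lie near or under background.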
